A study of Mus musculus with 15 samples.

Results

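The cytoplasmic ribosomal protein genes were taken as the rows of the count table whose symbol is Rpl or Rps followed by a digit, or Rplp0, Rplp1, Rplp2 or Rpsa. Symbols that hold -ps, the S6 kinases (Rps6k) and the Rps19 binding protein (Rps19bp) were dropped. This gave 92 of 54390 genes, of which 55 carry large subunit names and 37 carry small subunit names. The annotation lists 86 of them as protein coding and 6 as pseudogenes (Rpl32l, Rpl6l, Rpl37rt, Rps3a2, Rps3a3 and Rps4l). The rule used no measured value. RNA came from BV2, a mouse microglial cell line, either WT or Trem2-/-, which lacks a lipid receptor of microglia. Cells were kept overnight in medium alone (non-foamy) or with 20 µg/mL cholesterol made soluble with methyl-beta-cyclodextrin (foamy, meaning lipid laden). There were 4 libraries of non-foamy WT, 4 of foamy WT, 3 of non-foamy Trem2-/- and 4 of foamy Trem2-/- cells. The Trem2-/- cells were a clone grown by limiting dilution after a Trem2 guide was given to a Cas9-expressing BV2 clone, so the genotype cannot be told apart from the clone. Whether the WT cells carried Cas9, and whether replicates were separate cultures, is not given in the sources used here, so p-values measure the spread between these libraries, which may be technical.

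A ribosome joins a small subunit, which reads the mRNA, and a large subunit, which forms the peptide bond. Each holds ribosomal RNA and a set of proteins needed in matched amounts, and most of these proteins are encoded by a single expressed gene. Their mRNAs are among the most abundant in growing cells. They start with a C followed by a run of pyrimidines, the terminal oligopyrimidine (TOP) tract, through which mTOR and Larp1 control their translation and stability. Several members have a variant gene (Rpl7l1, Rps27l, Rpl22l1, Rpl36al and others), and many have processed copies elsewhere in the genome.

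Windows of 30 bases centred on the annotated start are shown because the pyrimidine run is the sequence feature that the family is known for. Variant genes are set beside it, of which some, but not Rpl22l1, differed from their parent genes between genotypes. A link between the run and the mRNA level was not tested. Runs of C and T of 5 bases or more are in capitals, and the first transcribed base is the 16th. The first 4 are standard ribosome components (Fau encodes the small subunit protein that is fused to a ubiquitin-like sequence), and the others are variant genes. The RefSeq windows are written 5′ to 3′ on the gene's strand, in GRCm38.p6.
Rpl15, chr14:18270972-18271001, minus strand: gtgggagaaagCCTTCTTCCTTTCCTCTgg
Rps27, chr3:90213634-90213663, minus strand: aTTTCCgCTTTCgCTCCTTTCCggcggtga
Rpl13a, chr7:45128731-45128760, minus strand: gaaaccctgcgacaagaCCTCCTCCTTTCC
Fau, chr19:6057932-6057961, plus strand: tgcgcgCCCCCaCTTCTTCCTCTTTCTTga
Rpl36al, chr12:69184053-69184082, minus strand: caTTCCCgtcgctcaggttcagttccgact
Rpl22l1, chr3:28805493-28805522, plus strand: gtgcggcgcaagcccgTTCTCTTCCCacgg
Rps27l (first of 2 listed starts), chr9:66946071-66946100, plus strand: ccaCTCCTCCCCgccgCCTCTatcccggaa
Rpl7l1, chr17:46782642-46782671, minus strand: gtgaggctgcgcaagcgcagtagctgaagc
The start base lay inside the run in Rpl15, Rps27 and Fau. The Rpl7l1 window held no run of 5 bases. Of the 92 genes, 68 were matched in the promoter table, and the rest were not analysed for sequence. A run of at least 8 C or T bases within 20 bases of a start was present in 32 of the 68 (47.1%), against 18.4% of all 27025 genes in the table.

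All 10 microglia and macrophage markers were detected, with summed levels of 6851 to 8798 CPM (read counts scaled to the size of the library) in WT and 11617 to 12824 in Trem2-/- libraries. The markers of astrocytes, neurons and oligodendrocytes summed to at most 0.631, 0.348 and 2.57 CPM, with Aqp4, Aldh1l1, Snap25, Syt1 and Mog at 0, and the 4 fibroblast markers were at 0. The summed macrophage markers thus moved with genotype, and their part in the results was not tested. The sum was led by Lyz2, at 3252 CPM in non-foamy WT and 6318 CPM in non-foamy Trem2-/- cells. Spi1 (93.4 and 98.3 CPM) and Itgam (26.7 and 29.3 CPM) differed little. In bulk RNA fewer cells of a type and less RNA per cell cannot be told apart. Trem2 mRNA was between 327 and 415 CPM in WT and between 214 and 232 CPM in Trem2-/- libraries, lower in every one of the latter but not absent. Non-foamy WT replicate 3 stood apart, with the lowest total (23538963 counts against up to 41683825) and 7.97% of reads on the mitochondrial genome against 6.55 to 6.73% in the other 3 of its group. For comparisons of non-foamy cells, the value of a gene without it is given where the call changed or the size moved by over 1.5 times.

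Ribosomal protein mRNA was a larger share of the RNA in Trem2-/- cells. The 92 genes held 14, 13.8, 17 and 13.8% of counted reads in the non-foamy WT libraries and 13.6, 15, 16.2 and 15.6% in the foamy WT libraries. In non-foamy Trem2-/- libraries they held 17.4, 17 and 16.8%, and in foamy Trem2-/- libraries 16.7, 16.2, 16.9 and 17.4%. Non-foamy WT replicate 3 lay within the Trem2-/- range, foamy WT replicate 3 met the lowest foamy Trem2-/- library at 16.2%, and all other WT libraries lay below the Trem2-/- libraries. The group values were 14.7% ± 1.55 (SD, n = 4), 15.1% ± 1.12 (SD, n = 4), 17.1% ± 0.274 (SD, n = 3) and 16.8% ± 0.512 (SD, n = 4), in the same order. Without replicate 3 the non-foamy WT value was 13.9% ± 0.145 (SD, n = 3). Both subunits contributed, and in each library the large subunit genes held more reads (7.91 to 10.1%) than the small subunit genes (5.69 to 7.37%).

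**Figure D1:**
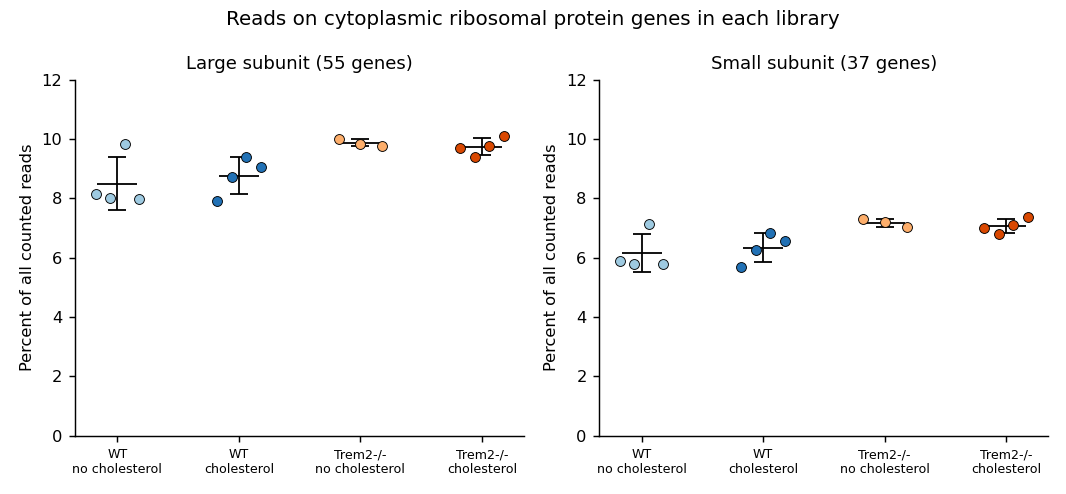
Percent of all counted reads (y axis, from 0) on the 55 large subunit genes (left) and the 37 small subunit genes (right), with 1 point per library, the horizontal line at the group mean and bars of 1 SD. The 7 Trem2-/- libraries lie close together and high in both panels, 1 non-foamy WT library (replicate 3) lies among them, and foamy WT replicate 3 meets the lowest of them.

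Of the 92 genes, 88 had enough counts to be tested (53 large and 35 small). Rpl10l, Rpl39l and Rps4l had 0 counts in every library, which allows up to 3 counts, or 0.072 to 0.127 CPM. Rps23rg1 had 1 count in 1 foamy WT library. Rpl10l and Rpl39l are variants best known from the testis. A gene was called when its adjusted p (edgeR quasi-likelihood test, Benjamini-Hochberg over 14237 genes) was under 0.05, and levels are CPM after TMM scaling. The median of a tested member was 1703 CPM, and 81 of them averaged at least 100 CPM.

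Without cholesterol, 68 of the 88 differed between the genotypes (77.3%), beside 43.6% of all genes tested. Of these, 66 were higher in Trem2-/- (beside 21.0% of all genes) and 2 were lower (Rpl7l1 and Rps27l, beside 22.6% of all genes). Large subunit genes (41 higher, 1 lower of 53) and small subunit genes (25 higher, 1 lower of 35) had median log2 fold changes of 0.37 and 0.35. The median over the 88 was 0.37, a 1.29-fold level, beside 0.02 over all genes. All Trem2-/- libraries lay above all WT libraries for 37 members (22.6% of all genes).

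The direction was the same in foamy cells, and no member was called for a difference between the comparisons. With cholesterol, 51 of the 88 were called (58.0%), beside 30.2% of all genes, with 50 higher (14.3% of all genes) and 1 lower (15.9% of all genes). The median log2 fold change was 0.28 in each subunit and over the 88, a 1.21-fold level, beside 0.00 over all genes. All Trem2-/- libraries lay above all WT libraries for 40 members (13.8% of all genes). These comparisons share no library, but they share the fit's estimate of the spread and the same Trem2-/- clone, so they are not independent. Of the 51, 49 were also called without cholesterol, which is 96.1% of the foamy calls and 72.1% of the non-foamy calls. Each had the same sign in both. The same overlap over all genes is not given here, so this one is not read as particular to the members. Over the 88 members the log2 fold changes of the comparisons had a Spearman correlation of 0.72 and a Pearson correlation of 0.75, a description over genes that vary together and are not independent replicates.

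**Figure D2:**
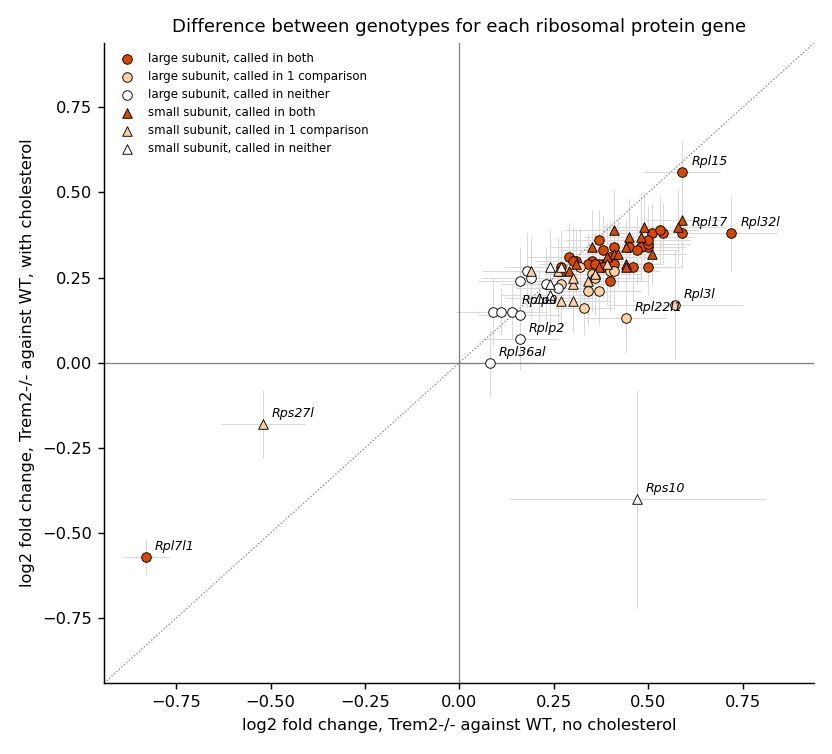
Log2 fold change of Trem2-/- against WT for each tested ribosomal protein gene without (x axis) and with cholesterol (y axis). Circles are large and triangles small subunit genes, grey bars are standard errors, fill gives the number of comparisons in which the gene was called, and the dotted line marks equal values. Most genes lie in a tight group above 0 on both axes, with Rpl7l1 and Rps27l below it.

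The size of these counts rested on single libraries. Without non-foamy WT replicate 3, 86 of 88 members were called in non-foamy cells (84 higher, 2 lower, median 0.48, beside 44.9% of all genes) and 76 in foamy cells (beside 33.4%). Without foamy WT replicate 1, the WT library with the lowest ribosomal protein share, 25 were called in foamy cells (23 higher, 2 lower, beside 27.4%). Without foamy Trem2-/- replicate 4, the count was 26 (beside 26.2%). Counted in both directions together, the foamy count stood near the background in these 2 fits. Over all genes, 1854 of 14126 were called higher without foamy WT replicate 1 and 1767 of 14188 without foamy Trem2-/- replicate 4. Without foamy WT replicate 1, the share of members called higher thus stood above that of all genes. The calls of 42 members in non-foamy cells (40 higher, 2 lower) held whichever library of the groups compared was left out, beside 31.4% of all genes (higher, 14.6%). The same held for 23 in foamy cells (22 higher, 1 lower), beside 20.5% of all genes (higher, 9.73%). Under scaling by total counts alone, the median of all genes moved to -0.12 and -0.13, and the members lay 0.36 and 0.28 above it, against 0.35 and 0.28 with TMM. The calls were then 58 (beside 43.5% of all genes) and 31 (beside 33.6%), and the direction turned for Rpl27, Rpl8 and Rpl36al without and for Rplp2 and Rpl36al with cholesterol, none of them called with TMM.

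Members rose and fell together within a group. In non-foamy WT replicate 3, 87 of 88 members lay above their group's mean, and in foamy WT replicate 1 none did. The median member lay 0.32 log2 units above the group in the former and 0.24 below it in the latter (log2 values of 0.32 and -0.24). The correlation of a member's within-group deviations with the median of the other members was 0.97 at the median over members and at least 0.80 for 80 of them, over 15 libraries that share their depth scaling. The lowest was 0.04, for Rps10. The libraries' mitochondrial shares went partly with this, since 3 of the libraries that stood high (non-foamy WT replicate 3, foamy WT replicate 3 and foamy Trem2-/- replicate 4) also had the highest mitochondrial shares (7.97, 7.76 and 8.05%). The part of RNA quality in this was not tested.

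**Figure D3:**
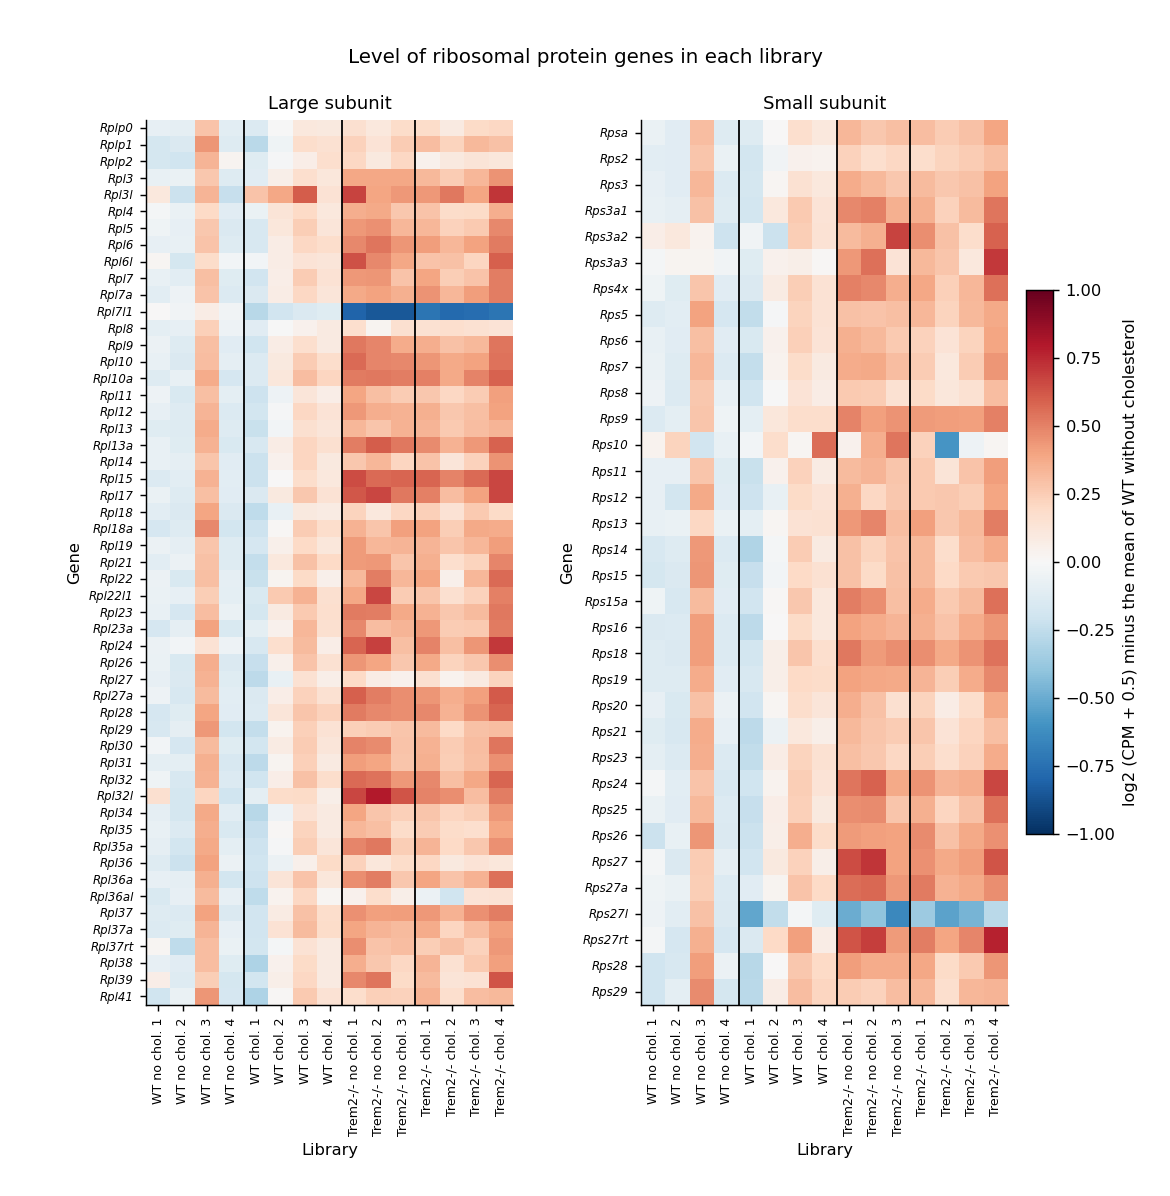
Level of the tested ribosomal protein genes, with 1 left out (rows, large subunit left, small subunit right) in the 15 libraries (columns), as log2 (CPM + 0.5) minus the mean of non-foamy WT, from -1 (blue) to 1 (red), with lines between groups. Columns change colour as a whole, Trem2-/- columns are red for most genes, and Rpl7l1 and Rps27l are the blue rows there.

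Rpl15, a large subunit protein, had the largest difference of the standard members in foamy cells. It measured 1349, 1377, 1884 and 1375 CPM in non-foamy WT and 2323, 2195 and 2222 CPM in non-foamy Trem2-/- libraries. It measured 1274, 1488, 1671 and 1593 CPM in foamy WT and 2221, 2092, 2195 and 2358 CPM in foamy Trem2-/- libraries. Every Trem2-/- library lay above every WT library. The log2 fold change was 0.59 ± 0.10 (s.e., adjusted p = 5.52e-05) without and 0.56 ± 0.09 (adjusted p = 1e-04) with cholesterol. The gene lies on the minus strand of chr14:18267823-18271391 (GRCm38).

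Rps27, a zinc finger protein of the small subunit, followed. Its level was 705, 647, 856 and 673 CPM in non-foamy WT against 1127, 1178 and 948 CPM in non-foamy Trem2-/- libraries. It was 626, 768, 840 and 746 CPM in foamy WT against 985, 930, 958 and 1106 CPM in foamy Trem2-/- libraries. Neither pair of groups overlapped. The log2 fold changes were 0.59 ± 0.10 (adjusted p = 5.09e-05) and 0.42 ± 0.09 (adjusted p = 0.00168). Rpl17, near the exit tunnel, had log2 fold changes of 0.59 and 0.38 and was called in both comparisons.

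Further members of both subunits moved by smaller amounts. Rpl10, at the joining face of the large subunit, and Rpl10a, of its L1 stalk, rose from 2417 ± 376 to 3412 ± 114 CPM and from 1749 ± 324 to 2476 ± 8.63 CPM (SD, n = 4 and 3) without cholesterol. Their foamy levels were 2575 ± 289 against 3263 ± 167 CPM and 1898 ± 244 against 2435 ± 143 CPM (SD, n = 4 each), and both were called there too. Rpl3 and Rpl22 were called in both comparisons, with log2 fold changes of 0.38 each without cholesterol and 0.28 and 0.33 with it. Rps3 and Rpsa, at the mRNA entry and exit sides of the small subunit, were called in both, at 0.31 and 0.29 without and 0.29 and 0.27 with cholesterol. Rps2, which sits near Rps3, missed the threshold without cholesterol (0.19, adjusted p = 0.0695) and passed with it (0.27, adjusted p = 0.0112), and Rps12, also of the small subunit, was the other gene called in foamy cells alone (0.27, adjusted p = 0.0472), and was chosen for naming after its values were seen. Without non-foamy WT replicate 3 both were called in non-foamy cells too, at 0.29 (adjusted p = 0.000524) and 0.41 (adjusted p = 0.000214). The foamy Rps12 call held in 2 of the 8 fits that left out a foamy library, with values from 0.20 (without WT replicate 1) to 0.33. The non-foamy calls of Rpl22 and Rps3 were lost without Trem2-/- replicates 2 and 1 (0.32 and 0.28), and that of Rpsa without WT replicates 2 or 4 or Trem2-/- replicate 1 (0.25, 0.25 and 0.27). In foamy cells Rpl22, Rps3 and Rpsa lost theirs without WT replicate 1 (0.26, 0.23 and 0.22), Rpl22 and Rpsa without Trem2-/- replicate 4 (0.25 and 0.24), Rpl22 without Trem2-/- replicate 1 (0.32) and Rpsa without WT replicate 2 (0.26).

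Rpl5 and Rpl11 bind 5S RNA and, when free, hold back Mdm2, the ligase that degrades p53. Rpl5 measured 2728, 2649, 3385 and 2549 CPM in non-foamy WT and 3792, 3868 and 3538 CPM in non-foamy Trem2-/- libraries, with no overlap. Rpl11 measured 1888, 1762, 2413 and 1830 CPM against 2577, 2411 and 2337 CPM, where WT replicate 3 overlapped. Both were called in each genotype comparison, at 0.40 and 0.31 without and 0.24 and 0.30 with cholesterol. The foamy Rpl5 call (adjusted p = 0.0482) held in 2 of the 8 fits that left out a library, and the values ran from 0.17 (without WT replicate 1) to 0.29. The non-foamy Rpl11 call was lost without Trem2-/- replicate 1 (0.27).

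Several members are mutated in Diamond-Blackfan anemia, an inherited failure of red cell production. Of these, Rps19 was called in both, from 1438 ± 268 to 1862 ± 12.5 CPM without cholesterol (SD, n = 4 and 3). Rps26 and Rpl35a were called without cholesterol (0.39 and 0.41) and had adjusted p of 0.0655 and 0.0559 with it. Without foamy WT replicate 3 both were called in foamy cells (0.38 and 0.34), as was Rpl35a without foamy Trem2-/- replicate 2 (0.31). Rps6, the S6 kinase substrate, showed the same, at 0.30 (adjusted p = 0.015) and 0.18 (adjusted p = 0.155). Rps14, lost in the 5q- form of myelodysplasia, passed in neither, at 0.24 and 0.28, but was called without WT replicate 3 of each condition (0.41, adjusted p = 0.000576, and 0.36, adjusted p = 0.0222). The difference between the comparisons was not called for any of these genes. The calls were often lost when a library was left out. That of Rps26 was lost without WT replicate 1 (0.32), and that of Rps6 was lost without WT replicates 2 or 4 (0.26 each) or Trem2-/- replicate 1 (0.28). The foamy Rps19 call held in 3 of 8 fits, with values from 0.21 (without WT replicate 1) to 0.32.

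Rps27a, made as a fusion with ubiquitin, measured 2772, 2723, 3382 and 2595 CPM in non-foamy WT and 4203, 4245 and 3844 CPM in non-foamy Trem2-/- libraries. It was called in both comparisons (0.51 and 0.32). Rps25, needed by viral internal ribosome entry sites, was called in both (0.39 and 0.31). Rpl38, known for its part in Hox mRNA translation, was called in both at 0.27 and 0.28, but its calls held in 1 of 7 non-foamy fits (all but the one without WT replicate 3 lost it) and 3 of 8 foamy fits that left out a library. The foamy Rps25 call held in 4 of 8, with a value of 0.22 without WT replicate 1. Rpl41, the smallest member, was not called (0.19 and 0.25), except without WT replicate 3 of each condition (0.36, adjusted p = 0.00283, and 0.32, adjusted p = 0.0467).

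The calls of the stalk proteins, which recruit elongation factors, turned on 1 library. Rplp0 measured 3843, 3823, 4965 and 3780 CPM in non-foamy WT and 4565, 4391 and 4622 CPM in non-foamy Trem2-/- libraries, so WT replicate 3 was the highest of the 7. The log2 fold changes were 0.14 ± 0.09 and 0.15 ± 0.08 for Rplp0, 0.18 ± 0.12 and 0.27 ± 0.11 for Rplp1, and 0.16 ± 0.10 and 0.07 ± 0.09 for Rplp2 (s.e., non-foamy then foamy). None was called, with adjusted p from 0.0706 to 0.62. Without non-foamy WT replicate 3, all 3 were called in non-foamy cells, at 0.25 for Rplp0 (adjusted p = 0.00346), 0.36 for Rplp1 (adjusted p = 0.00111) and 0.29 for Rplp2 (adjusted p = 0.00231). Without foamy WT replicate 3, Rplp1 was called in foamy cells (0.32, adjusted p = 0.0421). Whether they differ from the other members was not tested.

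Rpl7l1, a nucleolar relative of Rpl7 with a role in ribosome assembly, went the other way. It measured 326, 317, 342 and 317 CPM in non-foamy WT and 187, 181 and 181 CPM in non-foamy Trem2-/- libraries. It measured 269, 285, 295 and 299 CPM in foamy WT and 196, 190, 192 and 196 CPM in foamy Trem2-/- libraries. The Trem2-/- libraries lay below all WT libraries, and WT replicate 3 was not far from its group. The log2 fold changes were -0.83 ± 0.06 (adjusted p = 2.02e-10) and -0.57 ± 0.05 (adjusted p = 4.92e-08). The gene lies on the minus strand of chr17:46773907-46782672 and shares 6.75% of its 50-base stretches with other genes.

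Rps27l, the Rps27 variant known as a p53 target, was lower in non-foamy Trem2-/- cells. It measured 165, 159, 210 and 155 CPM in non-foamy WT and 121, 129 and 109 CPM in non-foamy Trem2-/- libraries, a log2 fold change of -0.52 ± 0.11 (adjusted p = 0.000403). In foamy cells the values were 119, 144, 169 and 157 CPM against 133, 118, 124 and 142 CPM, which overlapped, and the log2 fold change of -0.18 ± 0.10 was not called (adjusted p = 0.179). Without foamy WT replicate 1 it was -0.27 and was called, as it was with total counts (-0.31). The gene lies on the plus strand of chr9:66946086-66949516.

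A ratio to the parent gene sets each variant against its parent within a library. Rpl7l1 took little part in the shift of non-foamy WT replicate 3, and its lower ratio there goes with a high level of Rpl7 (4080 CPM). Per 100 Rpl7 reads there were 10.4, 10.3, 8.38 and 10.4 Rpl7l1 reads in non-foamy WT and 4.19, 4.02 and 4.49 in non-foamy Trem2-/- libraries. Foamy libraries had 9.28, 8.21, 7.47 and 8.15 in WT and 4.50, 4.85, 4.75 and 4.15 in Trem2-/-. The genotypes did not overlap in either condition.

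Per 100 Rps27 reads there were 23.4, 24.5, 24.6 and 23.1 Rps27l reads in non-foamy WT, and 10.7, 11 and 11.5 in non-foamy Trem2-/- libraries. Foamy libraries had 19.1, 18.7, 20.1 and 21 in WT and 13.5, 12.7, 13 and 12.9 in Trem2-/-. The genotypes did not overlap in either condition, and neither did the conditions within a genotype, the ratio being lower with cholesterol in WT and higher with it in Trem2-/- cells. Non-foamy WT replicate 3 lay with its group in this ratio, 24.6 beside 23.1 to 24.5. The ratios were not tested and use reads that were not corrected for length.

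Rpl36al, a variant of Rpl36a, had log2 fold changes of 0.08 (0.20 without non-foamy WT replicate 3) and -0.00 and was called in neither comparison, while Rpl36a was called in both (0.40 and 0.31), although the foamy call held in 3 of 8 fits that left out a library (0.22 without WT replicate 1). Per 100 Rpl36a reads there were 5.38 ± 0.289 and 5.11 ± 0.0771 Rpl36al reads in non-foamy and foamy WT (SD, n = 4 each), and 4.30 ± 0.325 and 4.11 ± 0.366 in Trem2-/- cells (SD, n = 3 and 4). These too did not overlap between genotypes. Rpl22l1, a variant of Rpl22, was called higher without cholesterol (0.44, adjusted p = 0.00257) and not with it (0.13, adjusted p = 0.375), and its ratio to Rpl22 overlapped between genotypes. Rpl3l, the muscle variant of Rpl3, stayed at 2.45 to 5.16 CPM and was called higher without cholesterol (0.57 ± 0.18, adjusted p = 0.0136), a call that was lost without Trem2-/- replicate 1 (0.46) or WT replicate 4 (0.48).

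**Figure D4:**
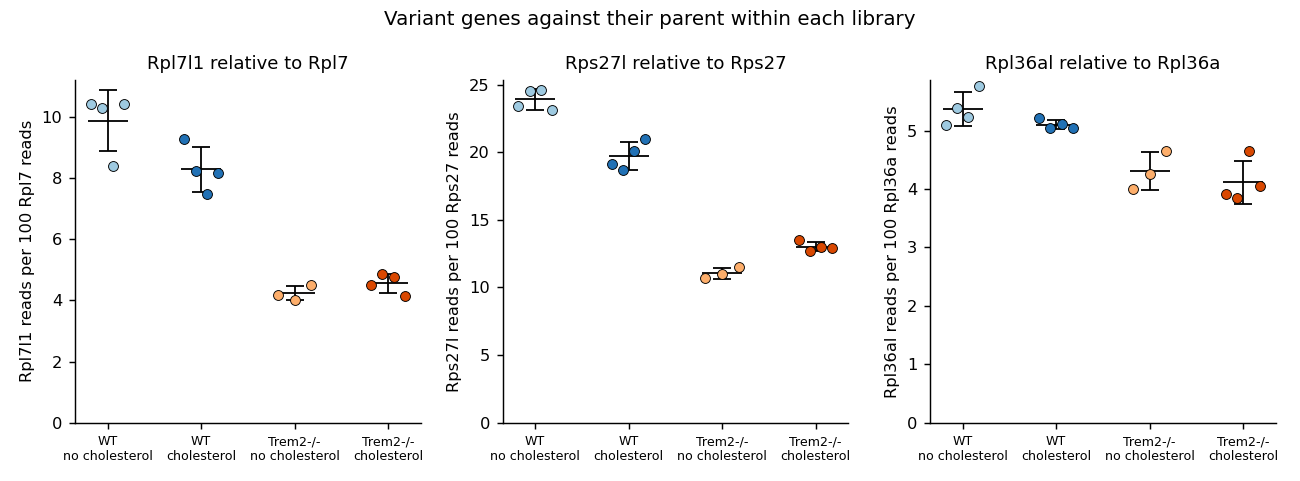
Reads of a variant gene per 100 reads of its parent gene (y axes, from 0) in each library for Rpl7l1, Rps27l and Rpl36al, with the line at the group mean and bars of 1 SD. Trem2-/- libraries lie below WT libraries in each panel without overlap, and the 4 Rps27l groups do not overlap.

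Some copies of members that lack introns differed between genotypes in their parents' direction, and their reads may not be separable. Within groups, Rps3a2 and Rps3a3 correlated less with the median of the other members (0.34 and 0.44) than Rps3a1 did (0.98). Their rows held 166 to 360 and 169 to 352 counts per library, against at least 91711 for Rps3a1. The part of sampling noise in this was not tested. Rpl32l rose from 9.54, 7.44, 9.95 and 7.32 CPM in non-foamy WT to 13.8, 15.1 and 13.4 CPM in non-foamy Trem2-/- libraries (log2 fold change 0.72 ± 0.12, adjusted p = 2.87e-05), and was called in foamy cells (0.38). Rps27rt (0.58 and 0.40), Rps3a2 (0.48 and 0.37) and Rps3a3 (0.41 and 0.39) were called higher in both, as was the parent Rps3a1 (0.44 and 0.28). In foamy cells the Rps3a1, Rps3a2 and Rps3a3 calls held in 3, 4 and 6 of 8 fits that left out a library, and in non-foamy cells the Rps3a2 and Rps3a3 calls in 6 and 5 of 7. Of the 50-base stretches of Rps27rt, Rps3a2 and Rps3a3, 91.1, 90.2 and 65.1% occurred in other genes. Rpl10l, Rpl39l and Rps4l, whose parents Rpl10 and Rps4x were called in both comparisons and Rpl39 without cholesterol, had no reads. The Rpl39 call was lost without Trem2-/- replicate 2 (0.33), and the foamy Rps4x call without WT replicate 1 (0.22) or Trem2-/- replicate 4 (0.23).

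The row of Rps10 itself was nearly empty. It held 0.413 to 1.52 CPM in all libraries, and its log2 fold changes of 0.47 ± 0.34 and -0.40 ± 0.32 were not called. Of its exons, 28.7% overlap Gm15420 and RPS10-NUDT3, and 22.6% of its 50-base stretches occur in other genes. Why the row was low was not tested. Rows named Rps10-ps held 99.6% of the reads of the gene and its copies. Together they measured 200, 186, 261 and 202 CPM in non-foamy WT and 271, 255 and 251 CPM in non-foamy Trem2-/- libraries. In foamy libraries they measured 185, 203, 221 and 223 CPM in WT and 247, 238, 258 and 267 CPM in Trem2-/-. The joint log2 fold changes were 0.29 and 0.28, so the foamy value turned direction and lay at the family's median. Such rows held 29.3% of the joint reads for Rpl14 and 13.9% for Rpl21, and the smallest shares were 0.

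Per kilobase of merged exons, Rplp1 (5807 CPM per kilobase), Rps3a1 (3947) and Rps29 (2792) had the highest levels among tested members. Rps10 (0.424), Rpl3l (2.39) and Rps3a3 (10.5) had the lowest. With the length of the principal transcript instead, a choice added after the data were seen, Rps18 (6444) was the highest and Rplp1 (5807) followed. The order of levels therefore depended on the gene model used. The Spearman correlation of log2 fold change with log2 mean CPM over members was -0.05 without and 0.10 with cholesterol (Pearson -0.05 and 0.33). With GC content it was -0.33 and -0.20 (Pearson -0.08 and -0.06), and with exon length 0.13 and 0.11 (Pearson 0.01 and -0.02).

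No member was called for a response to cholesterol. In WT cells 0 of 88 were called (2.80% of all genes), with 3 at an unadjusted p under 0.05 (beside 2341 of 14237 genes). The median log2 fold change was 0.04, which was 0.16 without non-foamy WT replicate 3, 0.12 without foamy WT replicate 1 and -0.02 without foamy WT replicate 3. In Trem2-/- cells 0 of 88 were called (0.140% of all genes), with 1 at an unadjusted p under 0.05 (beside 918 of 14237 genes). The median there was -0.03. DESeq2 called 1 in WT (beside 881 of 14237 genes) and 0 in Trem2-/- cells (beside 56 of 14237 genes). The difference between the responses was called for 0 of 88 (3.64% of all genes), with 3 at an unadjusted p under 0.05 (beside 2463 of 14237 genes). DESeq2 called 1 for it (beside 985 of 14237 genes). The standard errors had medians of 0.10 and 0.11 on the log2 scale.

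Rpl7l1 came closest. In WT its foamy libraries (269 to 299 CPM) lay below the non-foamy ones (317 to 342 CPM), at -0.18 ± 0.05 (adjusted p = 0.065), and in Trem2-/- its foamy libraries (190 to 196 CPM) lay above the non-foamy ones (181 to 187 CPM), at 0.08 ± 0.06 (adjusted p = 0.867). The difference between the responses was 0.26 ± 0.08 (adjusted p = 0.0621). DESeq2 called the response in WT (-0.19, adjusted p = 0.00422) and the difference (0.27, adjusted p = 0.00597). Rps27l had the same pattern, at -0.23 ± 0.10 in WT (adjusted p = 0.243) and 0.11 ± 0.11 in Trem2-/- cells (adjusted p = 0.908).

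Lists of genes that work with the ribosomal proteins had medians on either side of the all-gene values of 0.02 and 0.00. Of the other ribosome components, Fau was called higher in both comparisons (1518 ± 328 against 2101 ± 46.3 CPM without cholesterol, SD, n = 4 and 3), and Rack1, a scaffold on the small subunit, was called without cholesterol (0.27). Of 18 elongation factors and other TOP mRNAs, 12 were higher and 1 was lower without cholesterol (median 0.34, 72.2% called beside 43.6% of all genes), and 11 were higher and 1 lower with it (median 0.21, 66.7% called beside 30.2%). Eif4b (0.58 and 0.41), which helps unwind mRNA, and Eef1a1 (0.57 and 0.37), which brings tRNA to the ribosome, rose most without cholesterol, and Hnrnpa1, a splicing factor, was the gene that fell (-0.71 and -0.35). Vim, an intermediate filament gene with a TOP mRNA, was higher in both (0.49 and 0.45). Of these 18 genes, 5 (Eif3e, Eif3f, Eif3h, Eif3l and Eif4b) also count among the initiation factors below.

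Genes that escort ribosomal proteins were mostly lower in non-foamy Trem2-/- cells. Of 13 tested ribosomal protein chaperones and 5S particle assembly factors, 9 were lower and 1 was higher without cholesterol (median -0.41, 76.9% called beside 43.6% of all genes), and 7 were lower with it (median -0.20, 53.8% beside 30.2%). Rrs1, which loads the 5S particle, fell from 40.9 ± 5.29 to 25 ± 0.789 CPM without cholesterol (SD, n = 4 and 3, log2 fold change -0.72), and Heatr3, which carries Rpl5, was lower at -0.54 and -0.38. Tsr2, the chaperone of Rps26, was lower at -0.41 and -0.33. Ipo5, an importer of ribosomal proteins, was the gene called higher (0.23). Of 19 genes of ribosome quality control and ribosomal protein turnover, 9 were lower and 1 higher without cholesterol (median -0.25, 52.6% called beside 43.6%) and 8 were lower with it (median -0.19, 42.1% beside 30.2%). Usp10, which removes ubiquitin from the small subunit, was lower at -0.96 and -0.52, and Zfp598, which marks collided ribosomes, at -0.58 and -0.36.

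Of 15 TOP and mTOR regulators, 1 was higher and 5 were lower without cholesterol (median -0.13), and 1 was higher and 1 lower with it (median -0.09). The shares called, 40.0 and 13.3%, were below the 43.6 and 30.2% of all genes. Larp1, which binds the TOP tract, was lower in both (-0.39 and -0.40), while Tsc1, an inhibitor of mTOR, was higher without cholesterol (0.36). Mtor itself was at -0.26 (adjusted p = 0.0396) without and -0.22 (adjusted p = 0.0704) with cholesterol.

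Mitochondrial ribosomal proteins, which are encoded in the nucleus but serve the organelle's own ribosome, were mostly lower in Trem2-/- cells without cholesterol. Of 77 tested, 49 were lower and 4 higher (median -0.35, 68.8% called beside 43.6% of all genes). Mrps28 and Mrpl55 fell most, at -0.76 and -0.74, and Mrpl52 rose most, at 0.31. With cholesterol 15 were lower and 8 higher (median -0.07), and the 29.9% called was near the 30.2% of all genes. Of 51 tested initiation factor genes, 21 were lower and 8 higher without cholesterol (median -0.09, 56.9% called beside 43.6%), and 13 were lower and 9 higher with it (median -0.03, 43.1% beside 30.2%), with Eif1ad lowest in non-foamy (-0.85) and Eif3j2 highest in foamy cells (1.45). None of these lists was compared with the members by a test, and their genes were not refitted with a library left out.

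**Figure D5:**
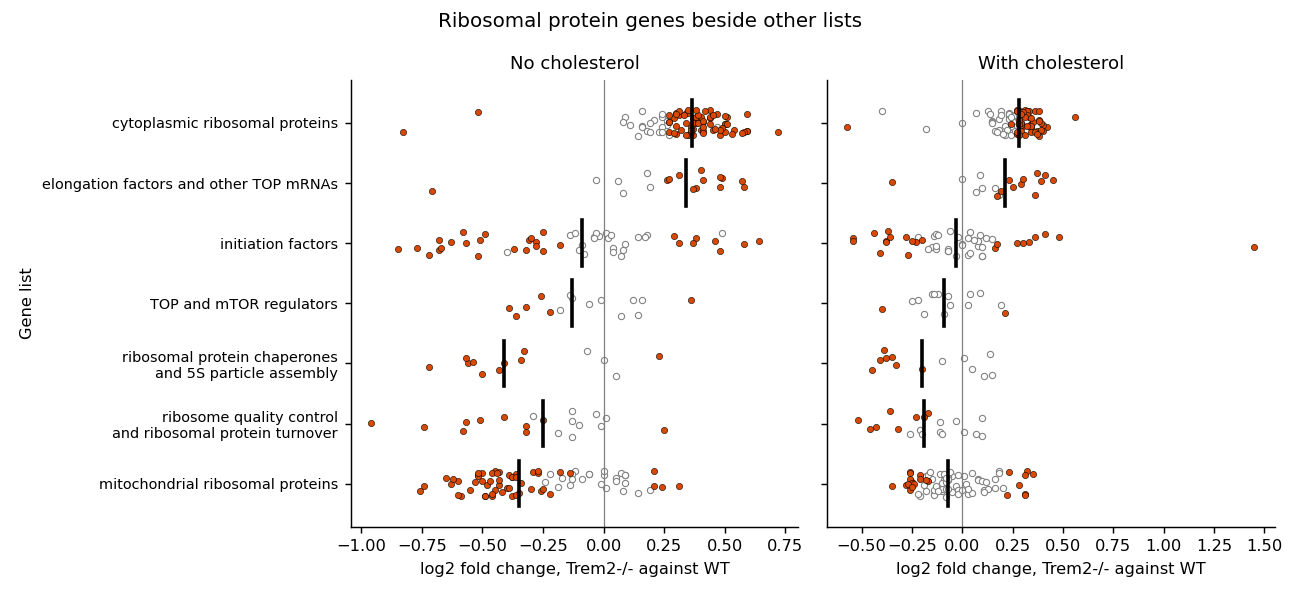
Log2 fold change of Trem2-/- against WT (x axes) for each tested gene of 7 lists without (left) and with cholesterol (right), in orange when called, with a line at the list's median. Cytoplasmic ribosomal proteins and TOP mRNAs lie to the right of 0, and chaperones, quality control genes and, without cholesterol, mitochondrial ribosomal proteins lie to the left.

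Members with a run of 8 or more C or T bases near a start had a median log2 fold change of 0.39 (n = 31) without cholesterol and those without a run 0.35 (n = 34), and the foamy medians were 0.29 and 0.28. The start base lay in a run of 5 or more in 23 of 68 members (33.8%) and in 11.8% of all genes, with medians of 0.41 (n = 22) with it and 0.36 (n = 43) without it in non-foamy cells. In the 300 bases around the start, on both strands, CCGGAAG, a core bound by ETS factors, was found in 38.2% of members and 9.93% of all genes, AAGATGG in 14.7 and 7.28%, and GGGCGG, an Sp1 core, in 58.8 and 38.2%. Members with and without CCGGAAG had medians of 0.35 and 0.39 in non-foamy cells. These are descriptions of annotated starts, which may differ from the starts used in BV2.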

How the data were processed

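Raw read counts per gene were analysed as deposited by the authors, who ran the CHURP pipeline (Trimmomatic, HISAT2, SAMtools, featureCounts) on GRCm38 with Ensembl 102 per the study's methods (mm10 in the submitters' processing notes). Libraries were made with a TruSeq kit; the strand setting and the treatment of multi-mapping reads are not given in the sources used here. Of the 50-base stretches of a member, a median of 23.9% occurred in other genes, and 40 members overlap another gene's exon, so splitting between copies is uncertain. Totals were 23538963 to 41683825 counts per library.

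Counts were fitted in edgeR 4.0.16 (R 4.3.3, limma 3.58.1) with TMM factors (0.918 to 1.11), filterByExpr at a minimum count of 10, 15 libraries and 1 mean per group (glmQLFit, glmQLFTest). The fit was over 14237 genes holding 99.97% of counts, with a biological coefficient of variation of 10.2%. DESeq2 1.42.0 was an alternative. Standard errors are on the log2 scale. No 2 replicates agreed within sampling noise (chi-square of at least 5.95 per gene). The fitting code was tested on simulated data. Positions and exons came from GENCODE M21 (all 92 members matched by identifier), promoters from RefSeq.

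Named members were the variant pairs, members fixed for their role, in each comparison the 3 called members that rose most and the 3 that fell most (mean of at least 1 CPM in a group compared) and the 3 highest and lowest per length. From the other lists, Fau, Rack1 and the called genes with the largest increase and decrease of each list were named; other genes named from those lists were chosen after their values were seen. Some genes under this rule are not reported here. The sequences shown were chosen after the values were seen. The members and lists were chosen with earlier results of these data known.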

Additional observations from a re-analysis of the deposited data

Results flagged for a closer look

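Within groups of 4 libraries, the highest or lowest library was tested against the others with Dixon's ratio at its 95% critical value, for which chance marks about 1 in 20 groups. Of 264 group tests over members, 59 (22.3%) were past it, of which 56 were non-foamy WT replicate 3, 2 were foamy Trem2-/- replicate 4 and 1 was foamy Trem2-/- replicate 2. These tests are not independent, since members vary together. The share of all genes past the same critical value is not given here, so the excess is not read as particular to the members. Compared with replicates 1, 2 and 4, non-foamy WT replicate 3 gave 31.2, 33.2 and 40.2 in the per-gene chi-square for sampling noise. Pairs among those replicates gave only 6.92, 7.61 and 6.35. In non-foamy WT replicate 3 the summed share of 17% was past the critical value.

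Only members named by the rule above are listed here, and others, such as Rps16 (ratio 0.993) and Rpl13 (0.988), had larger ratios than many of them. The same library was far above the other 3 for the large subunit members Rpl10 (2976 CPM), Rpl10a (2231 CPM), Rpl15 (1884 CPM), Rpl17 (2196 CPM), Rpl22l1 (175 CPM), Rpl3 (3770 CPM), Rpl35a (630.0 CPM), Rpl36a (1693 CPM), Rpl36al (88.7 CPM), Rpl38 (809 CPM), Rpl41 (3415 CPM), Rpl7 (4080 CPM), Rplp0 (4965 CPM) and Rplp1 (3596 CPM). It was also far above for the small subunit members Rps14 (2400 CPM), Rps19 (1840 CPM), Rps2 (2189 CPM), Rps25 (2598 CPM), Rps29 (2383 CPM), Rps3 (3455 CPM), Rps3a1 (4036 CPM), Rps4x (4132 CPM), Rps6 (2234 CPM) and Rpsa (5233 CPM). Rpl7l1 and Rps27l did not pass the critical value, though both were highest in this library. Rpl7l1 measured 342 CPM beside 317 to 326 CPM, and Rps27l 210 CPM beside 155 to 165 CPM. Rps29 was far below the other 3 in foamy Trem2-/- replicate 2 (1928 CPM).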

How the results depend on the processing

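Under the alternatives run for the 5 comparisons (DESeq2, RLE, total counts, TMM without members, filters, groups compared, replicate block, pseudogene rows, 1 library left out, and GC and length trends, the last added after the data were seen), both genotype medians stayed above 0. Non-foamy calls, 68, moved to 15 with a log2 fold change of at least 0.5, a limit for which no share of all genes is given here. They ranged from 47 without non-foamy Trem2-/- replicate 1 (beside 5232 of 14512 genes) to 86 without non-foamy WT replicate 3 (beside 6380 of 14207 genes). Foamy calls, 51, moved to 31 with total counts (beside 33.6% of all genes) and to 2 at 0.5. With 1 library of the foamy groups left out they ranged from 25 to 68. They were 25 without foamy WT replicate 1 (beside 27.4% of all genes) and 26 without foamy Trem2-/- replicate 4 (beside 26.2%). They were 33 without foamy WT replicate 2 (beside 3730 of 14152 genes). Without non-foamy WT replicate 3 the foamy count was 76 (beside 33.4% of all genes). No member was called for the response of Trem2-/- cells. In WT cells there was 1 with DESeq2, with total counts and with no filter and 2 with the trends removed. Over all genes these settings called 881, 428, 607 and 999, of 14237, 14237, 23619 and 14224 tested. For the difference between the responses there were 1, 1, 1 and 3 members, beside 985, 565, 750 and 1066 genes. The members were Rpl7l1, Rps27l and Rpl22l1. With 1 library left out the median in WT cells ranged from -0.02 to 0.16. The cause was not tested. Over all genes, total counts put 29.4% of non-foamy and 23.3% of foamy calls higher in Trem2-/-, against 48.1 and 47.4% with TMM.

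The mean share without mitochondrial reads in the total was 15.8% in non-foamy and 16.2% in foamy WT cells. In Trem2-/- cells it was 18.4% (non-foamy) and 18.1% (foamy). The mean share of all counts in non-foamy cells was 15% in WT and 17.4% in Trem2-/- with pseudogene rows. The foamy log2 fold change of Rps10 reversed to 0.28 with them. Of the 41 named members' other values, 3488 kept direction and side of the threshold, 99 lost and 61 gained a call, and 205 uncalled values changed sign.

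Whether the replicate numbers pair the libraries cannot be told from their correlations, since each group held 3 or 4 libraries. Correlations of same-numbered libraries' deviations ran from -0.105 to 0.143, and not every library correlated best with its own number. Among the foamy WT libraries, non-foamy WT replicates 1 and 3 correlated best with their own number (0.0879 and 0.143), and replicates 2 and 4 did not. With the replicate block the calls were 72 without (beside 41.5% of all genes) and 57 with cholesterol (beside 29.2%), and 0 for the other comparisons.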
